A study of Mus musculus with 6 samples.

Results

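The genes described here are Igsf8, its relative Ptgfrn and 8 tetraspanins, namely Cd9, Cd81, Cd82, Cd63, Cd151, Tspan1, Tspan8 and Tspan15. They were taken by symbol from the 24393 gene symbols that each library lists, and all 10 were present. Igsf8 was selected on its fitted log2 fold change between HOXA13 and CONTROL in these same libraries, so its difference between the groups is a description and is given without a test. The others were chosen for their known association with Igsf8, with earlier results of these data known. The study lists Cd9 and Cd82 beside Igsf8 as tetraspan network genes, and this list was made from the same libraries and is not independent evidence.

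RNA was sequenced from 6 libraries of KH2 mouse embryonic stem cells (strain C57/BL/6 in the labels), 3 of genotype CONTROL and 3 of genotype HOXA13. KH2 cells carry a locus for doxycycline-inducible genes, and in the HOXA13 cells the human HOXA13 gene with a FLAG tag had been placed there, with correctly targeted clones picked after drug selection. Cells of both groups were differentiated towards definitive endoderm, the germ layer of the gut epithelium, on a feeder layer of M15 cells of mesodermal origin. Doxycycline (1.25 µg/ml) was added from day 4 to switch on HOXA13, the fraction carrying both CXCR4 and E-cadherin was collected by sorting on day 6, and RNA was taken after 1 further day in doxycycline. The labels give this protocol for every sample and do not say separately whether CONTROL cells received doxycycline. The study calls the samples of a group biological replicates but does not say how they relate to clones or cultures, so p-values measure the spread between these samples.

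Igsf8 (also EWI-2) and Ptgfrn (also EWI-F) are membrane proteins with immunoglobulin domains and a short Glu-Trp-Ile motif that gives the EWI family its name. Tetraspanins cross the membrane several times and gather adhesion receptors and enzymes into patches of the cell surface, the tetraspanin web. Cd9 and Cd81 bind both EWI proteins directly, and the EWI proteins connect this web to actin through ezrin, radixin and moesin. In epithelia these proteins take part in adhesion to laminin, cell migration, cell fusion and the release of vesicles.

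The promoters of Igsf8 and of the 3 other members whose values in HOXA13 all lay above those in CONTROL are shown, since they are the members that were higher together. The sequences are from RefSeq (its table for GRCm38.p6), run from 250 bases before to 50 bases after an annotated start, and were located by exact match to mm9, the build of the counts. Capitals mark GGGCGG, the GC box bound by Sp1-type factors, searched on both strands. For Cd82, which has several annotated starts, the most upstream is shown.
Igsf8, mm9 chr1:174242248-174242547, plus strand: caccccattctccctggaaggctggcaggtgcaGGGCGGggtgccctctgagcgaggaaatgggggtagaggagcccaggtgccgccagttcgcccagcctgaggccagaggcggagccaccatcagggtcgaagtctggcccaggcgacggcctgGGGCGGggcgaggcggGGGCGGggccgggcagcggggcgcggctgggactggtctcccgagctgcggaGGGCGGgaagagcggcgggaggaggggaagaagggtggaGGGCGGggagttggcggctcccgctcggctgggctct
Ptgfrn, mm9 chr3:100914040-100914339, minus strand: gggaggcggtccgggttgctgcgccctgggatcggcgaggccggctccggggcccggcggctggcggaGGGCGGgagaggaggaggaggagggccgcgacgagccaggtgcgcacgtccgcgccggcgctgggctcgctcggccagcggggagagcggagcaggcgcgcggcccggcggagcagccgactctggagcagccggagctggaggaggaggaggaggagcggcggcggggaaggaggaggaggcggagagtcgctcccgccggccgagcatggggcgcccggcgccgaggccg
Cd9, mm9 chr6:125444729-125445028, minus strand: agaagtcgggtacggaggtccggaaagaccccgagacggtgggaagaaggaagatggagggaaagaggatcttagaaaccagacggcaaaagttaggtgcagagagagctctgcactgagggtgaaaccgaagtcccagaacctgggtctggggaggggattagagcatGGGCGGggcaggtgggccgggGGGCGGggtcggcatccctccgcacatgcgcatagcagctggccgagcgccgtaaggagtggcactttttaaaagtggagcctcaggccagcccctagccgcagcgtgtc
Cd82, mm9 chr2:93303058-93303357, minus strand: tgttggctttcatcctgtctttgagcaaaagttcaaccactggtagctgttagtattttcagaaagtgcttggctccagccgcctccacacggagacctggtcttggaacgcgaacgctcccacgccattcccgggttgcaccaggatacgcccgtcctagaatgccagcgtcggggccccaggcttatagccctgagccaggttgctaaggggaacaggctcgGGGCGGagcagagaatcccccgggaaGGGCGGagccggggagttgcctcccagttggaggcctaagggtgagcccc

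All 14 promoter windows of the 10 members matched mm9 exactly once. GGGCGG was present in 8 of these 14 windows and in 35.7% of the 32851 mouse promoter windows of 300 bases. The Igsf8 window held 5 copies, that of Ptgfrn 1, that of Cd9 2 and the Cd82 window shown 2. The letters CAATAAA and TCGTAAA, to which HOX13 proteins are known to bind, were searched on both strands and were in 0 of the 14 windows. They were in 4.6% and 0.597% of all windows. CAATAAA can share its end base with a GC box, and TCGTAAA cannot. The 4 windows shown were rich in G and C, at 74.3% for Igsf8, 80.0% for Ptgfrn, 61.3% for Cd9 and 60.7% for Cd82, where the median of all windows was 52.7%. They held 25, 44, 18 and 16 CpG dinucleotides, against a median of 7. This was not particular to the members that were higher. The windows of Cd81 (65.7%, 23 CpG), Tspan15 (66.3%, 29 CpG) and the upstream window of Cd151 (64.3%, 20 CpG) were alike. They held 3, 0 and 2 copies of GGGCGG. The windows of Cd63, Tspan1 and Tspan8 were at 49.3%, 54% and 51.7%, and the downstream window of Cd151 was at 56.7%. The Cd82 windows not shown were at 49.3% to 64.7%. The Igsf8 window lies inside the span of the gene in GENCODE M1 (chromosome 1, 174191772 to 174249972, plus strand), because that annotation holds transcripts that start further upstream.

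Total counts were between 12279884 and 17331638 per library. A row under the human identifier ENSG00000106031, which the files do not pair with a symbol, had 0 counts in each CONTROL library and 2497, 7666 and 6572 across the HOXA13 libraries, and mouse Hoxa13 had at most 10 counts in any library. CONTROL replicate 2 stood apart from the other CONTROL libraries, with a Spearman's rho across the 13600 tested genes of 0.908 with CONTROL replicate 1, 0.931 with CONTROL replicate 3 and between 0.951 and 0.961 with the HOXA13 libraries (0.977 between CONTROL replicates 1 and 3, which were at 0.894 to 0.952 with HOXA13), so the tested results are given with and without it. Of the endoderm markers Eomes had 317 to 1477 counts per library and Gata4 191 to 544, while Sox17 had 13 to 63, Gsc 0 to 22, and Cer1 0 in all 6, which allows up to 0.240 CPM (the count scaled by TMM to a common library size) in the shallowest library. The summed level of 20 epithelial markers was 2880, 9278 and 6837 CPM across CONTROL replicates 1 to 3 and 11700 to 14020 CPM in HOXA13. That of 23 mesenchymal and fibroblast markers was 15920, 4144 and 12860 CPM in CONTROL and 3237 to 7092 CPM in HOXA13. For 12 mesonephric markers, which M15 feeder cells could carry, the sums were 24.2 to 32.5 CPM in CONTROL and 10.9 to 24.9 CPM in HOXA13, with Hoxa10 at 63 to 200 counts and Emx2 at 13 to 75 counts per library, and Pax2, Pax8, Tcf21 and Meox1 at 0 counts in at least 3 libraries. For 12 pluripotency markers they were 188, 1491 and 245 CPM across CONTROL replicates 1 to 3 and 493 to 808 CPM in HOXA13. For 12 definitive endoderm markers they were 122 to 192 CPM in CONTROL and 81.1 to 122 CPM in HOXA13, and for 8 blood and endothelial markers 99.4 to 153 CPM and 68.7 to 106 CPM. Of the single markers with the highest means, Cldn4, an epithelial claudin, was at 471, 1936 and 1376 CPM across CONTROL replicates 1 to 3 and at 2360 to 2799 CPM in HOXA13, Krt18, a keratin of simple epithelia, at 564, 1443 and 1468 CPM and at 1299 to 1823 CPM with overlapping groups, Vim, a mesenchymal intermediate filament, at 4351, 547 and 3576 CPM and at 155 to 722 CPM, and Fn1, the matrix protein fibronectin and the most abundant of the mesenchymal list, at 3374, 2033 and 3728 CPM and at 1997 to 4976 CPM, with overlapping groups. The part of cell composition in the results below was not tested, and in bulk samples fewer cells of a type and less RNA per cell cannot be told apart.

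Of the 10 members 9 passed the filter on low counts and Tspan8 did not. Tspan1 passed it through the HOXA13 libraries, so it stays in the counts of tested members but its difference is a description. Of the 8 tested members other than Igsf8, 0 had an adjusted p-value under 0.05 in the quasi-likelihood test of edgeR (Benjamini-Hochberg adjustment over all 13600 tested genes), of which 0.309% were called. An unadjusted p under 0.05 was found for 4 of the 8, Ptgfrn, Cd9, Cd82 and Cd151, and for 14.1% of all tested genes. Without CONTROL replicate 2 these same 4 passed in edgeR, with Ptgfrn, Cd9 and Cd82 higher and Cd151 lower, but 14.2% of all tested genes passed as well. DESeq2, the tool of the study, called Ptgfrn, Cd9 and Cd82 where it called 5.07% of all genes. limma voom with sample quality weights called Ptgfrn, Cd9, Cd82 and Cd151 where it called 15.4%. The groups did not overlap for 3 of the 8, all higher in HOXA13, where 11.5% of all tested genes were higher and 8.52% lower without overlap.

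**Figure D1:**
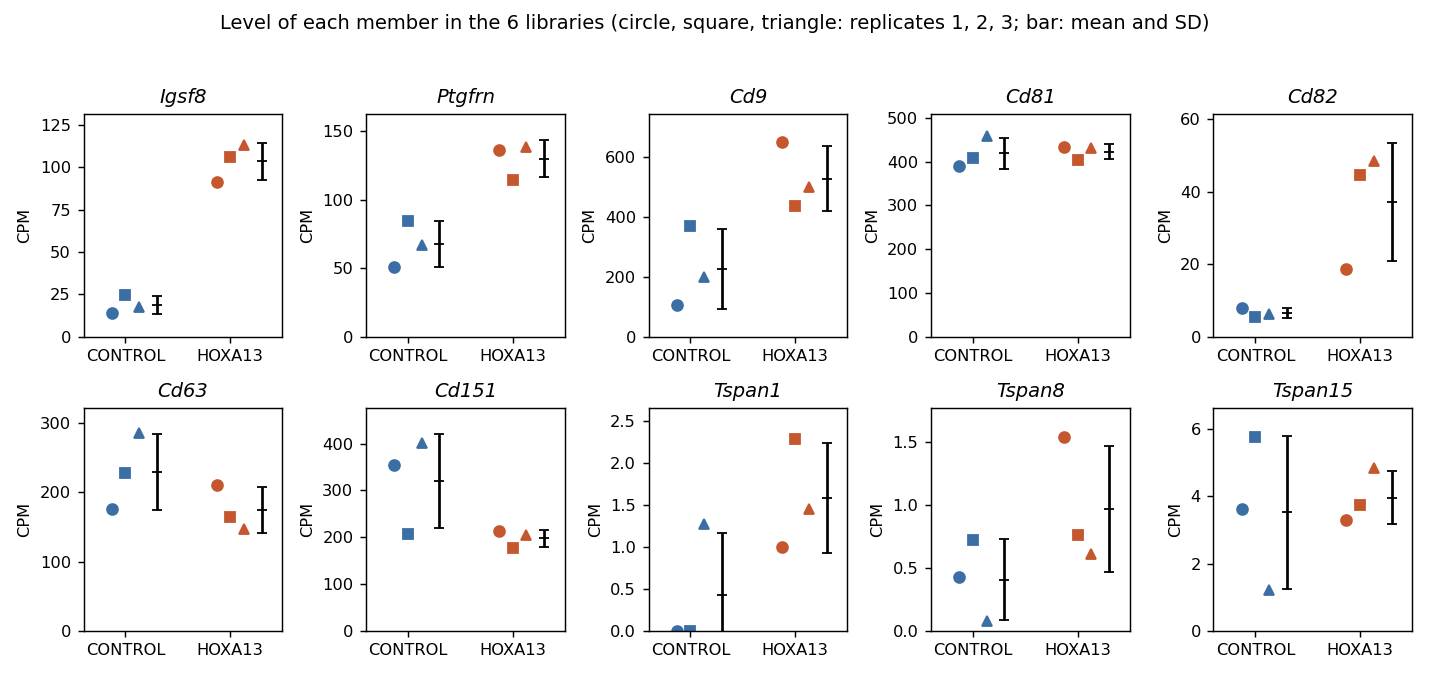
Normalised level in CPM (vertical axes, linear and from 0) of each of the 10 members in the CONTROL and HOXA13 libraries. Circles, squares and triangles are replicates 1, 2 and 3, and the bars show the mean and SD of each group (n = 3), where a bar that would pass below 0 ends at the axis. The groups do not overlap for Igsf8, Ptgfrn, Cd9 and Cd82.

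Igsf8, the smaller of the EWI proteins tested, was at 14.2, 24.8 and 17.8 CPM across CONTROL replicates 1 to 3 and at 91.4, 106 and 113 CPM in HOXA13 replicates 1, 2 and 3. Every HOXA13 library was above every CONTROL library, and CONTROL replicate 2 was the highest of its group. The means were 18.9 ± 5.39 and 104 ± 11.1 CPM (SD, n = 3), and the fitted log2 fold change was 2.45 (SE 0.25). It was 2.68 without CONTROL replicate 2.

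Ptgfrn, which regulates prostaglandin F2 alpha receptor binding and shares the EWI motif (chromosome 3, 100844155 to 100914201, minus strand), was at 50.9, 84.6 and 67.0 CPM across CONTROL and 136, 114 and 139 CPM in HOXA13. All HOXA13 values lay above those of CONTROL, and CONTROL replicate 2 was again the nearest to them. The log2 fold change was 0.94 (SE 0.21), with an edgeR adjusted p of 0.113, and 1.12 without CONTROL replicate 2 (edgeR adjusted p 0.00626). The DESeq2 adjusted p over all 6 libraries was 0.0106. Igsf3, a further member of the EWI family that lies on chromosome 3 as well (101181048 to 101266983), was at 21.6, 23.5 and 28.1 CPM across CONTROL and 62.6, 55.1 and 59.2 CPM in HOXA13. Its log2 fold change was 1.27 (SE 0.19) with an edgeR adjusted p of 0.0521, just above the threshold, and 1.23 without CONTROL replicate 2 (edgeR adjusted p 0.00609). Its DESeq2 adjusted p was 2.51e-05. Cd101, the family member known from leukocytes, had 0 counts in all 3 CONTROL libraries and a mean of 0.628 ± 0.988 CPM (SD, n = 3) in HOXA13, and was not tested. Besides Igsf8, both tested genes of the EWI family were higher without overlap, as were 11.5% of all tested genes.

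Per length, Ptgfrn was the more abundant of the EWI pair in CONTROL and Igsf8 in HOXA13. On a scale of CPM per kb of the longest coding transcript, the level of Igsf8 divided by that of Ptgfrn was 0.574, 0.603 and 0.547 in CONTROL replicates 1, 2 and 3. It was 1.38, 1.92 and 1.68 in HOXA13 replicates 1, 2 and 3. This ratio varied little in CONTROL, where it was 0.575 ± 0.0284 (SD, n = 3), and CONTROL replicate 2 did not stand apart in it. The summed level of Igsf8 and Ptgfrn divided by that of Cd9 and Cd81, the tetraspanins that bind them, was 0.0394 ± 0.00130 in CONTROL and 0.0834 ± 0.0137 in HOXA13 (SD, n = 3), on the same scale. As these ratios contain Igsf8, they were not tested.

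Cd9, a tetraspanin needed for fusion of sperm and egg and a direct partner of both EWI proteins (chromosome 6, 125410284 to 125444809, minus strand), was at 107, 370 and 200 CPM across CONTROL and 650, 437 and 500 CPM in HOXA13. The CONTROL libraries differed among themselves by more than the HOXA13 libraries did, and CONTROL replicate 2 came near the lowest HOXA13 value. The order of the CONTROL libraries was that of the summed epithelial markers, with replicate 1 lowest and replicate 2 highest. The log2 fold change was 1.23 (SE 0.41) with an edgeR adjusted p of 0.233, and 1.77 without CONTROL replicate 2 (edgeR adjusted p 0.0057). DESeq2 gave an adjusted p of 0.0362 over all 6 libraries.

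Cd81, the other direct partner of the EWI proteins and part of the B cell co-receptor (chromosome 7, 150238644 to 150253839, plus strand), was at 390, 408 and 459 CPM across CONTROL and 434, 404 and 430 CPM in HOXA13. The groups overlapped throughout. The log2 fold change was 0.01 (SE 0.14) with an edgeR adjusted p of 0.984, and it was -0.02 without CONTROL replicate 2. Its sign changed with the scaling, from 0.01 with TMM to -0.01 with RLE.

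Cd82, known as a suppressor of metastasis (chromosome 2, 93259268 to 93303297, minus strand), was at 7.94, 5.44 and 6.23 CPM across CONTROL and 18.6, 44.6 and 48.4 CPM in HOXA13. HOXA13 replicate 1 was the lowest of its group and still above all CONTROL libraries. The log2 fold change was 2.51 (SE 0.40) with an edgeR adjusted p of 0.0566, and 2.38 without CONTROL replicate 2 (edgeR adjusted p 0.00887). DESeq2 gave an adjusted p of 1.05e-06. In contrast to Cd9, Cd82 was lowest in CONTROL replicate 2.

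Cd151, the tetraspanin that binds laminin-binding integrins (chromosome 7, 148653261 to 148657378, plus strand), was at 353, 207 and 400 CPM across CONTROL and 213, 178 and 204 CPM in HOXA13. CONTROL replicate 2 lay within the range of HOXA13 and the other CONTROL libraries lay above it. The same libraries, CONTROL replicates 1 and 3, also had the highest summed mesenchymal markers. The log2 fold change was -0.69 (SE 0.24) with an edgeR adjusted p of 0.263, and -0.94 without CONTROL replicate 2 (edgeR adjusted p 0.00525). The annotation places a lincRNA on the opposite strand that shares 223 exon bases with Cd151, and lincRNAs that share 30 with each of Cd9 and Cd81.

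Cd63, a tetraspanin of late endosomes and exosomes (chromosome 10, 128345975 to 128349872, plus strand), was at 176, 228 and 286 CPM across CONTROL and 211, 165 and 148 CPM in HOXA13. The groups overlapped, and the log2 fold change was -0.40 (SE 0.22) with an edgeR adjusted p of 0.489, and -0.42 without CONTROL replicate 2 (edgeR adjusted p 0.271).

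Tspan1, Tspan8 and Tspan15, of which Tspan1 and Tspan8 are known from gut and other secretory epithelia and Tspan15 as a partner of the protease Adam10, were the members with the lowest levels. Tspan1 had 0, 0 and 17 counts in CONTROL and 13, 39 and 24 counts in HOXA13, and it passed the filter through the HOXA13 libraries. As the filter was passed through the group where Tspan1 was higher, its log2 fold change of 1.87 (SE 1.58) is a description. CONTROL replicate 3 lay within the HOXA13 range. Tspan8 had 6, 9 and 1 counts in CONTROL and 20, 13 and 10 in HOXA13, but in CPM CONTROL replicate 2 (0.720) exceeded HOXA13 replicate 3 (0.606). Tspan15 was at 3.62, 5.76 and 1.20 CPM across CONTROL and 3.30, 3.75 and 4.85 CPM in HOXA13, at a fitted log2 fold change of 0.17 (SE 0.67, edgeR adjusted p 0.944). Without CONTROL replicate 2 the log2 fold change was 1.29 for Tspan1, again a description, and 0.70 for Tspan15 (edgeR adjusted p 0.572). Tspan8 was below the edgeR filter, and its DESeq2 log2 fold change over the 6 libraries was 1.23 (DESeq2 adjusted p 0.778). Without CONTROL replicate 2 it passed the filter through the HOXA13 libraries. Its log2 fold change there, 1.89, is a description and is given without a test.

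**Figure D2:**
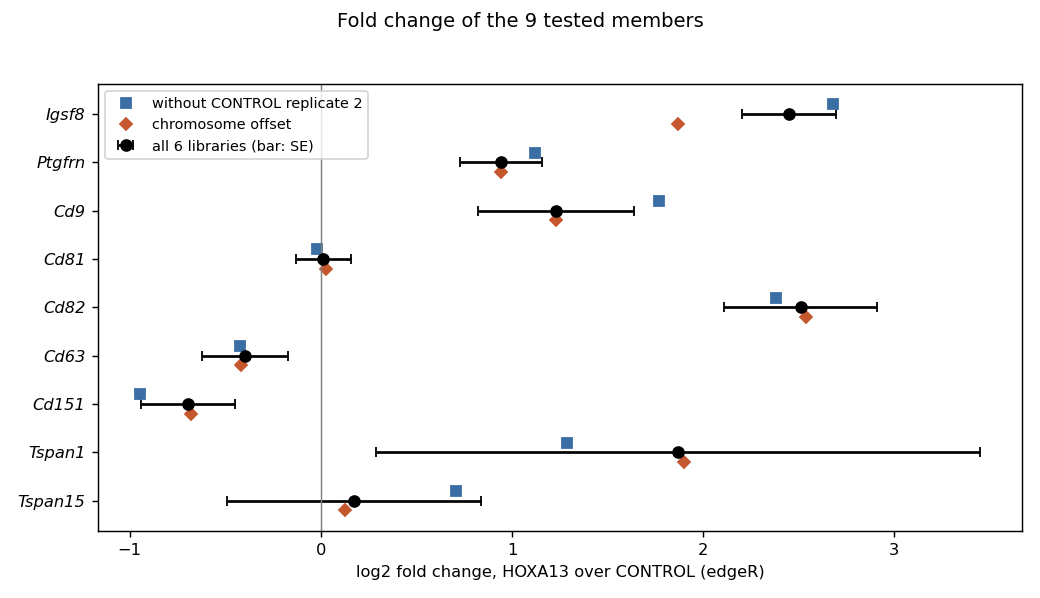
Fitted log2 fold change of HOXA13 over CONTROL (horizontal axis) for the 9 tested members. Black circles with bars are the edgeR estimate and SE over all 6 libraries, squares leave out CONTROL replicate 2, and diamonds offset each library by its median on each chromosome. Igsf8 moves from 2.45 to 1.87 with the offset, and Cd9 from 1.23 to 1.77 without CONTROL replicate 2.

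Per length, Cd81 was the most abundant member in CONTROL at 273 ± 23.5 CPM per kb, followed by Cd63 (245 ± 58.6), Cd9 (184 ± 109) and Cd151 (168 ± 52.9 CPM per kb, SD, n = 3). These 4 had overlapping ranges between neighbours in the order. Ptgfrn at 11.4 ± 2.85 and Igsf8 at 6.60 ± 1.88 CPM per kb came next and overlapped each other, Cd82 lay below both at 3.58 ± 0.703, and Tspan15, Tspan8 and Tspan1 were each under 1 CPM per kb. In HOXA13 Cd9 came first at 431 ± 89.2 CPM per kb, followed by Cd81 (276 ± 10.6), Cd63 (186 ± 35.1), Cd151 (104 ± 9.62) and Igsf8 (36.1 ± 3.87 CPM per kb, SD, n = 3), with no overlap between these neighbours. Ptgfrn at 22.0 ± 2.29 and Cd82 at 20.4 ± 8.89 CPM per kb overlapped.

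The summed level of the tetraspanin members was 720, 925 and 982 CPM per kb across CONTROL replicates 1 to 3 and 1160, 916 and 981 in HOXA13, and the groups overlapped. Of this sum Cd9 made up 12.1%, 32.6% and 16.6% in CONTROL and 45.6%, 38.9% and 41.5% in HOXA13. Cd63 made up 27.8% ± 2.82 in CONTROL and 18.2% ± 1.88 in HOXA13 (SD, n = 3), also without overlap. Cd151 made up 25.8%, 11.8% and 21.4% in CONTROL and 9.61%, 10.2% and 10.9% in HOXA13, so that CONTROL replicate 2 was the nearest to HOXA13 in Cd9 and in Cd151. Cd81 was at 31.5% ± 3.37 and 27.2% ± 2.50 (SD, n = 3). Shares of a sum depend on each other and were not tested.

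**Figure D3:**
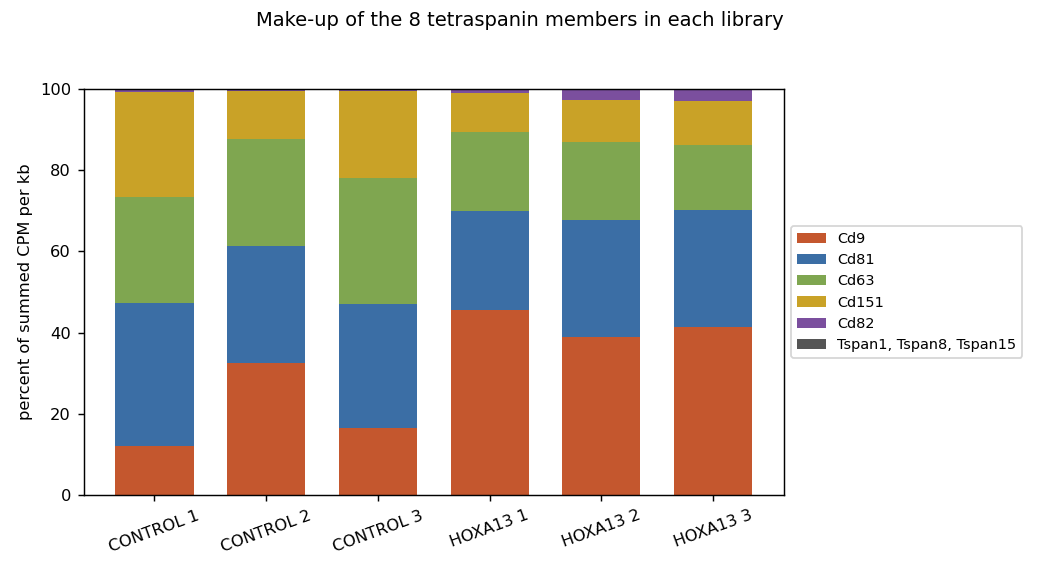
Percent of the summed CPM per kb of the 8 tetraspanin members (vertical axis) that each member makes up in each of the 6 libraries. Cd9 makes up 12.1% to 32.6% of the sum in CONTROL and 38.9% to 45.6% in HOXA13, and the 3 rarest members are too small to see.

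Igsf8 is the only member on chromosome 1, whose genes as a group differed between the HOXA13 and CONTROL libraries. Among the 470 chromosome 1 genes whose mean was 16 CPM or more, the median log2 fold change was 0.53, and the 10th and 90th percentiles were 0.07 and 1.23. The medians of the chromosomes that carry the other members (2, 3, 4, 6, 7 and 10) were between -0.05 and 0.01. The median deviation of chromosome 1 genes from the mean of the 6 libraries was -0.31, -0.33 and -0.22 across CONTROL replicates 1 to 3 and 0.31, 0.26 and 0.31 in HOXA13, so this shift was of like size in CONTROL replicate 2 and in the other CONTROL libraries. Igsf8 exceeded the chromosome 1 median by 1.92 on the log2 scale, a 3.78-fold difference. Of the 470 genes 6 had a log2 fold change at or above that of Igsf8, the others being Efhd1 (3.58), Cd55 (2.61), Mgst3 (2.54), Slco5a1 (2.50) and Mgat5 (2.47), which were looked up after their values were seen. How much of the difference in Igsf8 is shared with its chromosome was not tested beyond these values.

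Of the 6 nearest genes to Igsf8, all but Casq1 had a smaller log2 fold change than Igsf8. Within 1 Mb there were 15 other genes whose mean reached 16 CPM, all higher in HOXA13, with log2 fold changes from 0.31 to 1.65 and a median of 0.58. On one side the nearest with at least 5 CPM in a group were Casq1, a calcium-binding protein of muscle, Pea15a, an adaptor of death receptor signalling, and Dcaf8, a ubiquitin ligase adaptor. Their log2 fold changes were 3.16 (SE 0.89) for Casq1, which was at 0.994 ± 1.22 CPM in CONTROL (SD, n = 3), 1.02 (SE 0.20) for Pea15a and 0.60 (SE 0.16) for Dcaf8. On the other side they were 0.57 (SE 0.15) for Pigm, an enzyme of GPI anchor synthesis, 1.65 (SE 0.38) for Igsf9, an immunoglobulin superfamily gene, and 1.07 (SE 0.20) for Tagln2, an actin-binding protein. Casq1, at a mean of 8.91 CPM in HOXA13, passed the filter on low counts through the HOXA13 libraries, so its difference is a description. None of the other neighbours named here passed the threshold, with edgeR adjusted p-values from 0.0768 to 0.152.

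**Figure D4:**
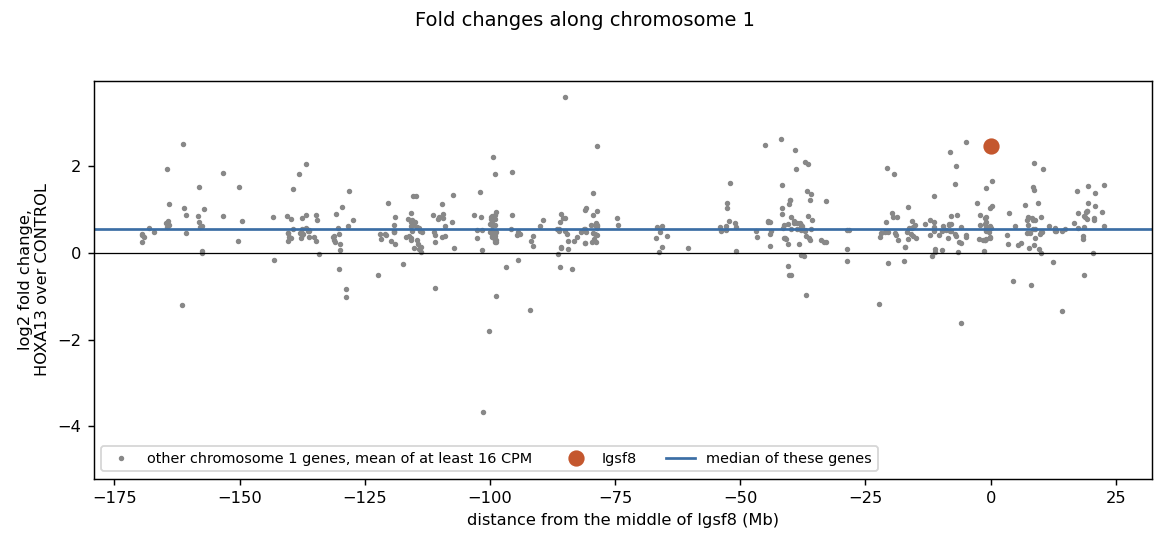
Log2 fold change of HOXA13 over CONTROL (vertical axis) against the distance from the middle of Igsf8 in Mb (horizontal axis) for the 470 chromosome 1 genes whose mean reached 16 CPM. Most genes lie above 0 along the whole chromosome, around the median line at 0.53, and Igsf8 lies well above it at 2.45.

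Genes whose profile over the 6 libraries was among the most like that of Igsf8, by Pearson's r of log2 CPM among 10724 genes whose mean reached 5 CPM, were Cops5 (r = 0.999), Blnk (0.999), Mgst3 (0.997) and Lin9 (0.997). All of these but Blnk lie on chromosome 1, and 5.74% of the compared genes with a position lie there. Blnk, an adaptor of B cell receptor signalling on chromosome 19, was at 5.25, 10.4 and 6.67 CPM across CONTROL and 35.8, 45.9 and 45.8 CPM in HOXA13. Among the members r with Igsf8 was 0.955 for Ptgfrn, 0.915 for Cd82, 0.868 for Cd9, 0.115 for Cd81, -0.576 for Cd63 and -0.822 for Cd151. The 6 libraries form 2 groups that differ in Igsf8, so the coefficients include the difference between the groups and are given as a description.

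The whole tetraspanin family was listed to set the members beside their relatives. Of 31 genes listed 23 were tested, and 0 passed in edgeR (8 had an unadjusted p under 0.05, beside 14.1% of all tested genes). DESeq2 called 4 (3 higher, 1 lower), and limma voom with quality weights and edgeR without CONTROL replicate 2 each called 10 (4 higher, 6 lower). The same fits called 5.07%, 15.4% and 14.2% of all genes. The median log2 fold change of the 23 was -0.24, and it was -0.01 over all tested genes. The median of the family was -0.04 without CONTROL replicate 2. Among the other tetraspanins the highest log2 fold changes were those of Tspan5 and Tspan14, both regulators of Adam10. Tspan5 was at 18.5, 40.5 and 25.4 CPM across CONTROL and 48.6, 69.0 and 86.4 CPM in HOXA13, at a fitted log2 fold change of 1.27 (SE 0.34, edgeR adjusted p 0.150). Tspan14 was at 50.7, 129 and 57.5 CPM across CONTROL and 168, 141 and 194 CPM in HOXA13, at a fitted log2 fold change of 1.08 (SE 0.35, edgeR adjusted p 0.225). The groups did not overlap for either gene. Tspan14 lies on chromosome 14, where the median gene was 0.33 higher on the log2 scale in HOXA13 and the median deviation per library was -0.40, 0.20 and -0.32 across CONTROL replicates 1 to 3 and 0.14 to 0.22 in HOXA13, and the part of this shift in the value of Tspan14 was not tested. Without CONTROL replicate 2 both passed in edgeR, Tspan5 at 1.62 (adjusted p 0.00763) and Tspan14 at 1.61 (adjusted p 0.00163).

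The lowest values of the family were those of Tspan9 and Tspan4 among genes with at least 5 CPM in a group. Tspan9, a tetraspanin known from platelets, was at 337, 144 and 382 CPM across CONTROL and 82.2, 117 and 108 CPM in HOXA13, without overlap. Its log2 fold change was -1.49 (SE 0.35), with adjusted p-values of 0.118 in edgeR and 0.00091 in DESeq2. Tspan4, a tetraspanin of migrating cells, was at 73.8, 34.8 and 105 CPM across CONTROL and 29.3, 41.1 and 38.9 CPM in HOXA13, where CONTROL replicate 2 lay inside the HOXA13 range. Its log2 fold change was -0.97 (SE 0.38, edgeR adjusted p 0.301). Without CONTROL replicate 2 both passed in edgeR, Tspan9 at -1.82 (adjusted p 0.00102) and Tspan4 at -1.31 (adjusted p 0.00694). As with Cd151, CONTROL replicates 1 and 3 were the libraries with the highest Tspan9 and Tspan4 and the highest summed mesenchymal markers.

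**Figure D5:**
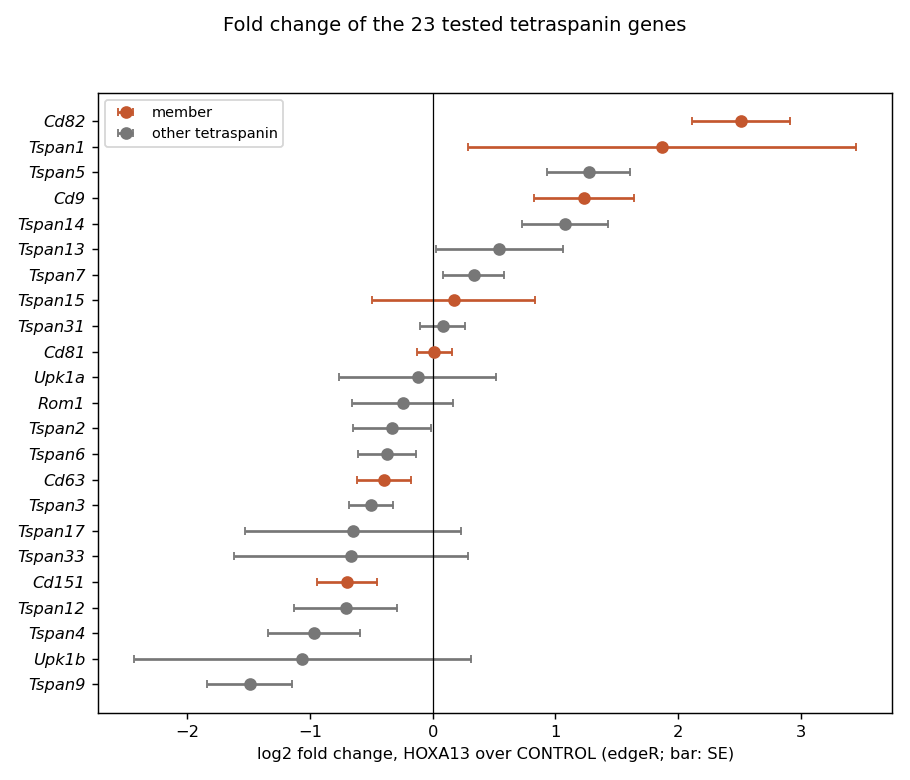
Fitted log2 fold change of HOXA13 over CONTROL with its SE (horizontal axis) for the 23 tested tetraspanin genes, members in colour and other tetraspanins in grey. The values run from -1.49 for Tspan9 to 2.51 for Cd82.

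Adam10, the sheddase whose exit from the endoplasmic reticulum and substrate choice the TspanC8 tetraspanins control, was at 115 ± 49.6 CPM (SD, n = 3) in CONTROL and averaged 95.9 ± 7.63 CPM (SD, n = 3) in HOXA13, at a fitted log2 fold change of -0.26 (SE 0.32, edgeR adjusted p 0.783). With Tspan5, Tspan14, Tspan15, Tspan17 and Tspan33 it forms the 6 tested of 7 listed genes, of which 0 passed in edgeR (2 at an unadjusted p under 0.05, a level reached by 14.1% of all genes), 1 in DESeq2, 2 in limma voom and 3 in edgeR without CONTROL replicate 2, fits that called 5.07%, 15.4% and 14.2% of all genes. Tspan17 was at 6.16 ± 5.33 CPM (SD, n = 3) in CONTROL and averaged 3.92 ± 1.36 CPM (SD, n = 3) in HOXA13. The fitted values of the TspanC8 genes had either sign, and those of Tspan5, Tspan14 and Tspan15 were positive. Adam10 passed in edgeR without CONTROL replicate 2, at -0.58 (adjusted p 0.0435).

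Among 29 other listed partners of the web (integrins, ezrin, radixin, moesin, adhesion molecules and proteases) 28 were tested, and 0 passed in edgeR (7 had an unadjusted p under 0.05, against the same 14.1% over all genes). DESeq2 called 3 (2 higher, 1 lower), limma voom 11 (7 higher, 4 lower), and edgeR without CONTROL replicate 2 called 10 (6 higher, 4 lower), where they called 5.07%, 15.4% and 14.2% of all genes. The median log2 fold change was -0.10. Ezr, which encodes ezrin, through which the EWI proteins reach actin, was at 183, 513 and 319 CPM across CONTROL and 784, 820 and 911 CPM in HOXA13, without overlap, and it is one of the genes the study lists. Its log2 fold change was 1.31 (SE 0.34) with an edgeR adjusted p of 0.146, and 1.72 without CONTROL replicate 2 (edgeR adjusted p 0.0033). Cldn7, a claudin that binds Epcam in tetraspanin complexes, was at 28.7, 202 and 89.0 CPM across CONTROL and 388, 234 and 284 CPM in HOXA13, at a fitted log2 fold change of 1.5 (SE 0.59, edgeR adjusted p 0.304). Itga7, a laminin-binding integrin of muscle, was at 41.4, 23.8 and 40.7 CPM across CONTROL and 12.8, 13.8 and 18.0 CPM in HOXA13, without overlap, at a fitted log2 fold change of -1.25 (SE 0.29, edgeR adjusted p 0.118). Cd36, a scavenger receptor, had 0 counts in HOXA13 replicate 1 and varied from 0.560 to 41.4 CPM in CONTROL, at a fitted log2 fold change of -2.06 (SE 1.59, edgeR adjusted p 0.638). Without CONTROL replicate 2, Cldn7 at 2.34 (edgeR adjusted p 0.0102) and Itga7 at -1.48 (edgeR adjusted p 0.00576) passed, and Cd36 at -2.64 did not (edgeR adjusted p 0.192).

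Tetraspanins such as Cd63, Cd81 and Cd9 are carried on extracellular vesicles, so 18 genes of vesicle formation were listed too. Of these 17 were tested and 0 passed in edgeR (2 had an unadjusted p under 0.05, where 14.1% of all genes did), and the median log2 fold change was 0.09, or -0.0019 without CONTROL replicate 2. DESeq2 called 1 of them, Flot2, as lower, while limma voom and edgeR without CONTROL replicate 2 each called 4 (2 higher, 2 lower), beside 5.07%, 15.4% and 14.2% of all genes in these fits. Flot2, a flotillin of lipid rafts, was at 162, 107 and 136 CPM across CONTROL and 66.2, 84.8 and 86.4 CPM in HOXA13, at a fitted log2 fold change of -0.77 (SE 0.20) and adjusted p-values of 0.150 in edgeR and 0.0293 in DESeq2. Flot2 and Cldn7 lie on chromosome 11, where the median gene was at -0.17 on the log2 scale and the median deviation per library was 0.38 in CONTROL replicate 1 and -0.12 to -0.03 in the other libraries, and the part of this shift in their values was not tested. Sdc4, a syndecan that feeds cargo into exosomes, was at 49.8, 264 and 101 CPM across CONTROL and 364, 281 and 277 CPM in HOXA13, at a fitted log2 fold change of 1.15 (SE 0.52, edgeR adjusted p 0.374). Anxa5, a phospholipid-binding annexin, had a log2 fold change of -0.51 (SE 0.23), and Rab27a, a GTPase of vesicle release, had 0.74 (SE 0.76). Their edgeR adjusted p-values were 0.381 and 0.743. Without CONTROL replicate 2 Sdc4 (2.00, edgeR adjusted p 0.00431), Flot2 (-0.93, edgeR adjusted p 0.0101) and Anxa5 (-0.74, edgeR adjusted p 0.00945) passed, while Rab27a (1.44, edgeR adjusted p 0.265) did not.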

How the data were processed

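The authors deposited 1 table of unnormalised read counts for each library. Directional poly-A libraries had been aligned to mm9 with TopHat2 (2.0.14 in the submitters' processing notes) and counted with HTSeq 0.6.1p1. The annotation and the handling of multiple alignments are not given in the sources used here. All 6 libraries entered 1 fit with edgeR 4.0.16 under R 4.3.3 (filterByExpr with a minimum count of 10 and total of 15, TMM, glmQLFit and glmQLFTest on the group, Benjamini-Hochberg, threshold 0.05). SEs were derived from the F statistic, and log2 CPM used a prior count of 2. Alternatives were DESeq2 1.42.0, limma 3.58.1 voom with sample quality weights, RLE scaling, other filters, a replicate block, an offset per chromosome and leaving out each library. Positions and lengths are from GENCODE M1 (mm9). The older symbol Gpr56 was matched to Adgrg1.

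The members and lists were chosen with earlier results of these data known. Besides the members, the 2 highest and 2 lowest of each list by log2 fold change are named (at least 5 CPM in a group), with the 3 nearest genes on each side of Igsf8 and the 5 most correlated with it, of which 1 is not reported here. The rule also names the 2 marker genes per list with the highest mean, of which those of the epithelial, mesenchymal, endoderm and mesonephric lists are given. Sox17, Gsc, Cer1 and the 4 mesonephric genes were named outside the rule, after their values were seen. Floors of 3 counts cover counting error only. On simulated counts for this comparison over 13600 genes, edgeR called 62.0% of 100 genes changed 4-fold, and 5.63% of its calls were on unchanged genes. For DESeq2 these were 77.0% and 27.5%, and for limma voom 57.0% and 4.55%.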

Additional observations from a re-analysis of the deposited data

How the results depend on the processing

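The number of genes called was 42 and depended on the setting. It was 722 with DESeq2, 2101 with limma voom, 163 with no filter beyond 1 count, 9 under a mean filter of 50 counts (1849 at an unadjusted p under 0.05), 1 with the chromosome offset (1745 at an unadjusted p under 0.05), and 0 to 2006 across the fits that left out a library, with the highest count without CONTROL replicate 2. Of the 8 tested members other than Igsf8, 0 passed, against 3 with DESeq2, 4 with limma voom, 1 (Cd82) with no filter and 0 to 4 without a library (4 without CONTROL replicate 2, 1 without HOXA13 replicate 1). For the tetraspanin family the count of 0 became 4 with DESeq2, 10 with limma voom, 1 with no filter and 0 to 10 without a library. For the partners it became 3, 11 and 0 to 10, for the TspanC8 genes with Adam10 1, 2 and 0 to 3, and for the vesicle genes 1, 4 and 0 to 4, with DESeq2, limma voom and without a library. The cause was not tested.

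The directions of Igsf8, Ptgfrn, Cd9, Cd82, Cd63, Cd151 and Tspan1 were kept in every alternative that gave a value (13 each, 12 for Tspan1). For Igsf8, selected on its difference, and Tspan1, which passed the filter through the HOXA13 libraries, this is a description. Their log2 fold changes ranged from 1.87 to 2.68 for Igsf8, 0.75 to 1.12 for Ptgfrn, 0.87 to 1.77 for Cd9, 2.26 to 2.82 for Cd82, -0.59 to -0.23 for Cd63, -0.94 to -0.52 for Cd151 and 1.28 to 7.54 for Tspan1 (3.80 under the replicate block; leaving out CONTROL replicate 3, where both CONTROL libraries left have 0 counts, gave 7.54). That of Cd81 changed sign in 9 of 13 alternatives, to -0.0068 with RLE, -0.0071 with DESeq2, -0.038 with limma voom, -0.012 with no filter, -0.015 under a mean filter of 50 counts, and from -0.0588 to 0.0648 without a library. That of Tspan15 changed sign without CONTROL replicate 3 (-0.26) and without HOXA13 replicate 3 (-0.02), and ranged from -0.26 to 0.70 without a library and up to 1.1 with limma voom. The chromosome 1 median was -0.0399 with the chromosome offset, which removes it by construction, and the excess of Igsf8 over that median was 1.91 there and 1.76 to 2.16 without a library.

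The replicate numbers in the titles did not mark samples that deviate together, since the deviations of samples sharing a number correlated at -0.13 on average across genes (0.07 for different numbers). With the replicate block 0 genes passed (1392 at an unadjusted p under 0.05), and 0 of the 8 members. Depth limits Tspan1 and Tspan8, whose levels lay at or near the floor of 0.176 to 0.240 CPM in some libraries.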
